A study of Homo sapiens with 3 samples.

Results

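The genes described here are 49 members of the DNA replication licensing and fork machinery, taken by symbol from the 22464 genes of a deposited expression table. All 49 were found. The table covers SK-Hep-1, an established human cell line from a liver adenocarcinoma, grown as 3 lines that each carry a lentiviral short hairpin RNA stably. In the sh1089-1 and sh1089-2 lines the hairpin targets LINC01089, a long noncoding RNA, and the shNC line carries a negative control hairpin, so that lentiviral infection and a hairpin are common to all 3. Each line was sequenced as 1 library, so no difference below has a replicate check, and an effect of a hairpin cannot be told apart from a difference between the lines. LINC01089 itself was not analysed here, and the labels were not checked against it. Stable hairpin lines, as made here, report on cells that had grown with the hairpin, and the time in culture is not given in the sources used here.

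Replication origins are prepared in G1, when the origin recognition complex (ORC1 to ORC6), CDC6 and CDT1 load the ring-shaped MCM2 to MCM7 helicase onto DNA, a step called licensing, and geminin (GMNN) later blocks reloading by binding CDT1. At S-phase entry the kinase CDC7 with its activator DBF4, together with CDC45, the GINS complex and MCM10, turns the loaded helicase into a moving fork. Polymerase alpha-primase then lays primers, polymerases delta and epsilon copy the strands on the PCNA clamp, and FEN1 and LIG1 join the lagging-strand pieces. Many of these genes are textbook targets of E2F transcription factors, and their mRNAs rise in cells that pass from G1 into S phase.

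The libraries held 9528312 reads for sh1089-1, 8359832 for sh1089-2 and 10698480 for shNC, and detected 11046, 11195 and 11361 genes at 1 FPKM (fragments per kilobase of gene, scaled to the library's reads) or more. The reads behind each FPKM value were recovered from the steps between the values. Intervals printed below are exact 95% counting intervals from those reads, and they cover counting error only. They are less sure where the gene length found differs from the annotated one, and the 2 were equal for 25 of the 49 members. Against the label of liver tissue, the hepatocyte genes APOA1, TTR and FGB were listed at 0 in each library and HNF4A lay at 0.0654 FPKM or less, while SERPINA1 had 5.91 FPKM in sh1089-1, 8.004 in sh1089-2 and 4.69 in shNC. Of the endothelial genes, ENG had 48.8, 42.8 and 37.5 FPKM, and PECAM1, CDH5, VWF, TEK, TIE1 and ERG lay at 0.293 FPKM or less. Of the leukocyte genes, CD68 had 0.388, 0.774 and 0.648 FPKM, PTPRC lay at 0.0229 FPKM or less and LYZ was listed at 0 in each library. Of the epithelial genes, KRT8 had 889, 893 and 619 FPKM and KRT18 had 1244, 1203 and 739, while EPCAM and CDH1 lay at 0.118 FPKM or less. Of the mesenchymal genes, VIM had 1171, 1445 and 922 FPKM, FN1 18.5, 32.1 and 20.2, SPARC 229.9, 307.5 and 312 and THY1 12.2, 11.9 and 6.85, while COL1A1 and COL1A2 lay at 0.670 FPKM or less. These lists did not move 1 way, and their part in the results below was not tested.

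Exons of 21 members overlap those of another annotated gene, 17 of them on the opposite strand and 6 on the same strand, and whether counting used strand is not stated. On the opposite strand the shared part was 22.7% of exon bases in MCM2, 21.2% in GINS4, 10.9% in GINS3 and 8.94% in MCM7, and on the same strand 35.1% in POLA2, 14.9% in PRIM1 and 8.64% in POLD1. Values of these genes may hold reads of their neighbours.

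Most replication genes stood higher in both hairpin libraries than in shNC. A gene is called higher or lower here when FPKM + 1 differs by at least 1.5-fold, which is log2(1.5) on the log2(FPKM + 1) scale. Calls were made among the 11198 genes with a mean of at least 1 FPKM over the 3 libraries. Of the 49 members 47 passed that filter, and MCM8 and POLA2 did not. In sh1089-1, 32 of the 47 were called higher, against 5.27% of all 11198 genes, and 0 lower, against 5.83%. In sh1089-2, 22 of the 47 were called higher, against 4.89% of all genes, and 0 lower, against 5.63%. In both hairpin libraries at once, 21 were called higher, where 3.08% of all genes were, and 0 were called lower, where 2.79% were. The comparisons share their only control library, so the count for both is not independent of the counts for each. At 2-fold, 8 members were called higher in sh1089-1, against 1.38% of all genes, 3 in sh1089-2, against 1.63%, and 3 (FEN1, MCM7 and ORC1) in both, against 0.723%. At 2-fold 0 members were called lower, where 1.51% of all genes were in sh1089-1, 1.61% in sh1089-2 and 0.741% in both.

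The median difference in log2(FPKM + 1) over the 47 members was 0.71 in sh1089-1 and 0.56 in sh1089-2, beside medians of -0.03 and -0.04 over all 11198 genes. Summed over all 49 genes, the machinery took 3517 RPM, reads scaled to a common library total, in sh1089-1, 3179 in sh1089-2 and 1929 in shNC. That is 1.82-fold (1.79 to 1.86) and 1.65-fold (1.62 to 1.68) the share in shNC. By plain ratio 42 of the 49 lay above shNC in both libraries, 1 (ORC2) lay below it in both and 6 lay on either side. Among tested genes, 41 of the 47 members lay above shNC in both, against 33.3% of all 11198. ORC2 and RPA3 turned to just above shNC in sh1089-2 on TPM, with median centring and with TMM scaling, and TIPIN did on TPM. The counting interval lay above 1 in both libraries for 36 members, and the share of all genes with such intervals was not counted. In bulk RNA, more cells in S phase and more of these mRNAs per cell cannot be told apart.

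**Figure D1:**
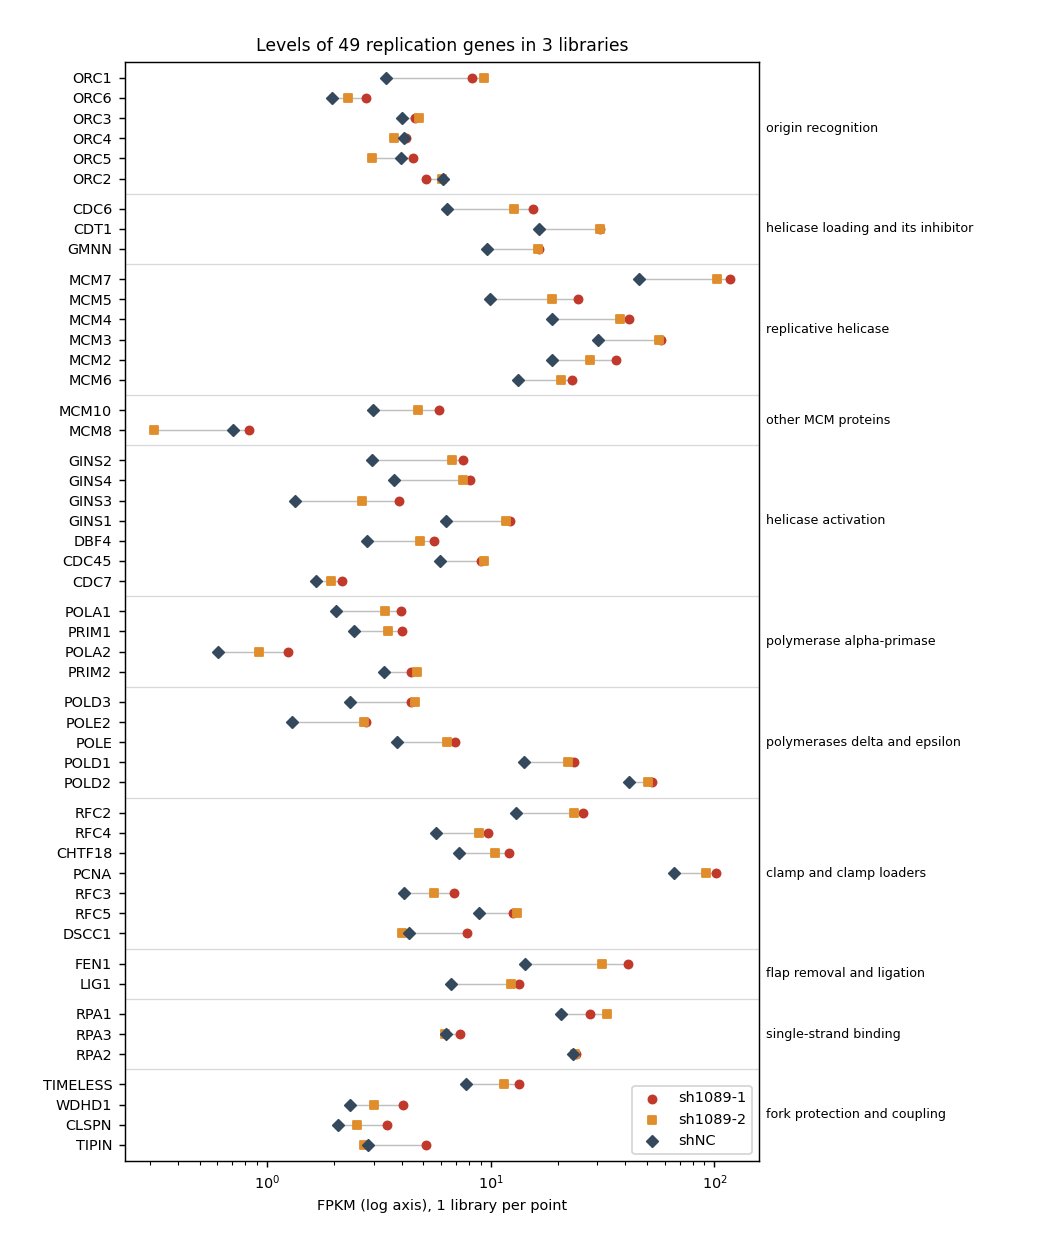
FPKM on a log axis for each of the 49 replication genes, grouped by role and ordered within a role by the mean difference over both hairpins; each point is 1 library (red circle sh1089-1, orange square sh1089-2, blue diamond shNC). In 35 genes shNC is lowest and sh1089-1 highest, while the points of RPA2 lie closest together, at 24.1, 23.9 and 23.4.

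The promoters of the members at the top and the bottom of the list are shown because many replication genes are textbook E2F targets. A further reason is that ORC1 and 2 of its partners in the same complex lay at opposite ends. Binding of E2F factors was not tested. The windows run from 250 bases before the RefSeq transcription start to 50 after it (GRCh38.p14), 5′ to 3′ on the gene's strand. Capitals mark the E2F words TTTCCCGC, TTTCGCGC, TTTGCCGC and TTTGGCGC and the CCAAT box, on either strand. FEN1 lies at chr11:61792661-61792960 on the plus strand, MCM7 at chr7:100101348-100101647 on the minus strand, ORC1 at chr1:52404374-52404673 on the minus strand, ORC2 at chr2:200963611-200963910 on the minus strand and ORC5 at chr7:104207964-104208263 on the minus strand.
FEN1: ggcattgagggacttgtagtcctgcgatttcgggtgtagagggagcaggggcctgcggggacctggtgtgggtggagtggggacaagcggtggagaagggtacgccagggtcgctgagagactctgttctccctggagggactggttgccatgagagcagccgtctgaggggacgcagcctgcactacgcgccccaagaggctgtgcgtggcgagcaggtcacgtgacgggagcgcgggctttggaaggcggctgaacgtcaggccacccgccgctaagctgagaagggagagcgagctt
MCM7: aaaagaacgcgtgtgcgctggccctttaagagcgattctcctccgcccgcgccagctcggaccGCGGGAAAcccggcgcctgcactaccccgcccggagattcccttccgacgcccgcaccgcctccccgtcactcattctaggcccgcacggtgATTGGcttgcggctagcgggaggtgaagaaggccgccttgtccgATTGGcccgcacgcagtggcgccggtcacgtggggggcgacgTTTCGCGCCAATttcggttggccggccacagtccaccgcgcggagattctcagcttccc
ORC1: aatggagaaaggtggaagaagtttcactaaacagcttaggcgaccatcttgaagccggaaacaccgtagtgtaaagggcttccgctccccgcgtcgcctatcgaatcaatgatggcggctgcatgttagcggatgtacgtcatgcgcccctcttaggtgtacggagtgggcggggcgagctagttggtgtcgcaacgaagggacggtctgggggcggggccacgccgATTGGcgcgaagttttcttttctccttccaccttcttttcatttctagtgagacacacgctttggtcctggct
ORC2: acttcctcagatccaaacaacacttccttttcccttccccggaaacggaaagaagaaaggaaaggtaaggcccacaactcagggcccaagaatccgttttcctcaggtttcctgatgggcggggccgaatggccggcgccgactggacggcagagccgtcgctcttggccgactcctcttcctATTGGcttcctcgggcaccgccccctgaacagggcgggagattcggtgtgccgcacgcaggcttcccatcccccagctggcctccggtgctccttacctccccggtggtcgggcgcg
ORC5: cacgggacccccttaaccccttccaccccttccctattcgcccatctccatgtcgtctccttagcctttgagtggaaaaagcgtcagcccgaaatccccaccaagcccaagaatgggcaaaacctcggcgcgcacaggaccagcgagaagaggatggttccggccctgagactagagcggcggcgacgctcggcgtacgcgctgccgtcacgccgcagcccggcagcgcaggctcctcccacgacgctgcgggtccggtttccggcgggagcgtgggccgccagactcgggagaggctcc

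The MCM7 window holds 2 E2F words, TTTCCCGC on the opposite strand at position -187 and TTTCGCGC at -9, counted from 0 at the first transcribed base, and 3 CCAAT boxes, 1 of which shares a base with the word at -9. The ORC1 and ORC2 windows hold a CCAAT box each and none of the 4 E2F words, and the FEN1 and ORC5 windows hold neither, although FEN1 had the largest mean difference of the list. RefSeq windows were matched for 42 members. An E2F word was found in 19 of these 42 (45.2%), against 5.74% of the 8433 windows of tested genes and 3.33% of all 27305 windows. A CCAAT box was found in 24 (57.1%), against 36.8% of windows of tested genes and 35.7% of all windows. The CHR words TTTGAA and TTTAAA, searched on both strands as the motif of late cell cycle genes, were found in 1 member (DBF4, 2.38%), against 14.4% and 24.3%; by comparison they were in 13 of 15 windows of a list of G2/M genes. High E2F and CCAAT shares were not peculiar to the members. An E2F word was in 41.2% of 17 windows of other G1/S genes, and in smaller shares of the other lists described below. A CCAAT box was in 64.7% of windows of other G1/S genes and 93.3% of those of G2/M genes. It was also more frequent in other replication factors and chromatin assembly genes than in members, and less frequent in the remaining lists. E2F words on opposite strands can overlap, as in MCM6, which had 4 matches. Of the 17 tested members with an E2F word 11 were called higher in both hairpin libraries, and of the 23 tested without it 6 were, where 3.08% of all genes were. The mean difference over both hairpins ranged from 0.17 to 1.23 with the word and from -0.11 to 1.29 without it.

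**Figure D2:**
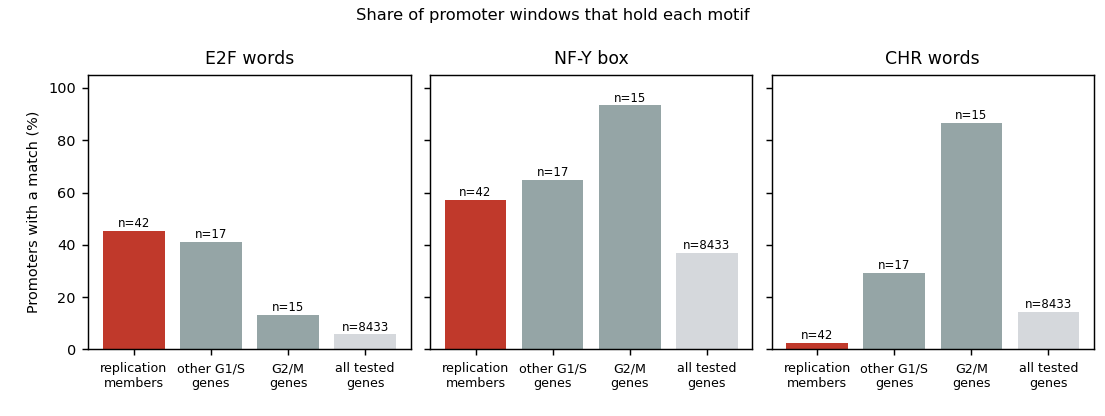
Share of promoter windows (percent) that hold an E2F word, a CCAAT box (titled by NF-Y, the factor that binds it) or a CHR word, for 42 replication members, 17 other G1/S genes, 15 G2/M genes and 8433 tested genes. The members stand at 45.2% for E2F words and 2.38% for CHR words, and the G2/M genes at 13.3% and 86.7%.

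Within the origin recognition complex ORC1 stood apart from the other 5 subunits. ORC1, the subunit whose level is under cell cycle control, had 8.27 FPKM in sh1089-1, 9.31 in sh1089-2 and 3.41 in shNC. It was 2.42-fold (1.93 to 3.05) and 2.73-fold (2.18 to 3.44) above shNC. ORC2, a core subunit, had 5.13, 6.03 and 6.09 FPKM, 0.842-fold (0.720 to 0.985) and 0.9901-fold (0.847 to 1.16) of shNC. ORC3 had 4.58, 4.77 and 4.03 FPKM, ORC4 4.19, 3.69 and 4.10, and ORC5 4.51, 2.96 and 3.97. ORC6, the loosely bound subunit, had 2.78, 2.30 and 1.95 FPKM, resting on 114, 83 and 90 reads. The order of the levels in the complex therefore differed: ORC1 was the most abundant subunit mRNA per length in both hairpin libraries, and ORC2 was in shNC. Of the 6 subunits ORC1 alone was called higher, in either library, against 5.27% of all genes in sh1089-1 and 4.89% in sh1089-2.

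All 3 genes of helicase loading and its inhibitor were called higher in both libraries, where 3.08% of all genes were. CDC6, the ATPase that brings the helicase to the origin complex (chromosome 17, 40287633 to 40304657), had 15.4 FPKM in sh1089-1, 12.8 in sh1089-2 and 6.39 in shNC, 2.41-fold (2.13 to 2.74) and 2.00-fold (1.75 to 2.28). CDT1, the loading factor (chromosome 16, 88803213 to 88809258), had 30.9, 30.7 and 16.4 FPKM, 1.88-fold (1.70 to 2.09) and 1.87-fold (1.69 to 2.08). Its inhibitor GMNN had 16.4, 16.2 and 9.59 FPKM, 1.71-fold (1.45 to 2.01) and 1.69-fold (1.43 to 2.00). The loader and its inhibitor thus stood higher to a like extent, and the ratio of CDT1 to GMNN in FPKM was 1.89 in sh1089-1, 1.90 in sh1089-2 and 1.71 in shNC.

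In sh1089-2 5 of the 6 subunits of the replicative helicase, all but MCM2, were called higher, against 4.89% of all genes. In sh1089-1 all 6 were, against 5.27%. Together they took 1460 RPM in sh1089-1, 1275 in sh1089-2 and 659 in shNC, 2.21-fold (2.15 to 2.28) and 1.93-fold (1.88 to 1.99). MCM7 (chromosome 7, 100092728 to 100101940), the most abundant subunit mRNA in all 3 libraries, had 118, 103 and 46.2 FPKM, 2.55-fold (2.42 to 2.68) and 2.23-fold (2.11 to 2.35), and ranked 69 of 11198 genes by its mean difference. MCM5 (chromosome 22, 35400063 to 35425430) had 24.5, 18.9 and 9.94 FPKM, 2.47-fold (2.26 to 2.69) and 1.90-fold (1.73 to 2.08). MCM4 had 41.4, 38.0 and 18.8 FPKM, 2.20-fold (2.06 to 2.35) and 2.02-fold (1.89 to 2.16).

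MCM3 had 57.9, 56.4 and 30.1 FPKM, 1.92-fold (1.79 to 2.07) and 1.87-fold (1.74 to 2.02). MCM2, which carries a histone-binding tail, had 36.1, 27.8 and 18.8 FPKM, 1.92-fold (1.77 to 2.08) and 1.48-fold (1.36 to 1.61). MCM6 was the lowest of the 6 by mean difference, with 23.0, 20.5 and 13.3 FPKM, 1.73-fold (1.56 to 1.93) and 1.55-fold (1.39 to 1.73). Although the proteins form a ring with 1 copy of each, the mRNA levels per length spanned 5.12-fold from MCM6 to MCM7 in sh1089-1, 5.45-fold from MCM5 to MCM7 in sh1089-2 and 4.65-fold from MCM5 to MCM7 in shNC.

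The other MCM proteins are not ring subunits. MCM10, a fork activator, had 5.87 FPKM in sh1089-1, 4.74 in sh1089-2 and 2.98 in shNC, 1.97-fold (1.63 to 2.39) and 1.59-fold (1.30 to 1.95). MCM8, a helicase of recombination repair rather than of licensing, had 0.832, 0.311 and 0.705 FPKM on 61, 20 and 58 reads, 1.18-fold (0.811 to 1.72) and 0.441-fold (0.251 to 0.745) of shNC. Its mean level lay below the filter, so it could not be called.

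Of the 7 genes that activate the helicase 5 were called higher in both libraries, where 3.08% of all genes were. These 5 were all 4 GINS genes and DBF4. GINS2 (chromosome 16, 85676198 to 85690073) had 7.50 FPKM in sh1089-1, 6.69 in sh1089-2 and 2.93 in shNC, 2.56-fold (2.02 to 3.26) and 2.28-fold (1.78 to 2.94). GINS4 had 8.05, 7.49 and 3.71 FPKM, 2.17-fold (1.84 to 2.57) and 2.02-fold (1.70 to 2.41). GINS3, the least abundant subunit, had 3.91, 2.65 and 1.34 FPKM on 190, 113 and 73 reads. It was 2.92-fold (2.22 to 3.88) and 1.98-fold (1.46 to 2.70) above shNC. GINS1, the most abundant, had 12.3, 11.7 and 6.34 FPKM. All 4 GINS genes lay above shNC in both libraries, with intervals above 1.

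CDC45, the helicase partner of GINS, had 9.07, 9.33 and 5.91 FPKM, 1.53-fold (1.26 to 1.87) and 1.58-fold (1.29 to 1.93), just under the threshold on the log2(FPKM + 1) scale. DBF4, the activator of CDC7, had 5.57, 4.84 and 2.79 FPKM, 2.00-fold (1.62 to 2.48) and 1.74-fold (1.39 to 2.18). The kinase CDC7 itself had 2.16, 1.93 and 1.66 FPKM, 1.30-fold (0.917 to 1.84) and 1.16-fold (0.799 to 1.68), on 74, 58 and 64 reads. Its difference was not detectable at this depth, and the ratio of CDC7 to DBF4 was 0.387 in sh1089-1, 0.398 in sh1089-2 and 0.596 in shNC.

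**Figure D3:**
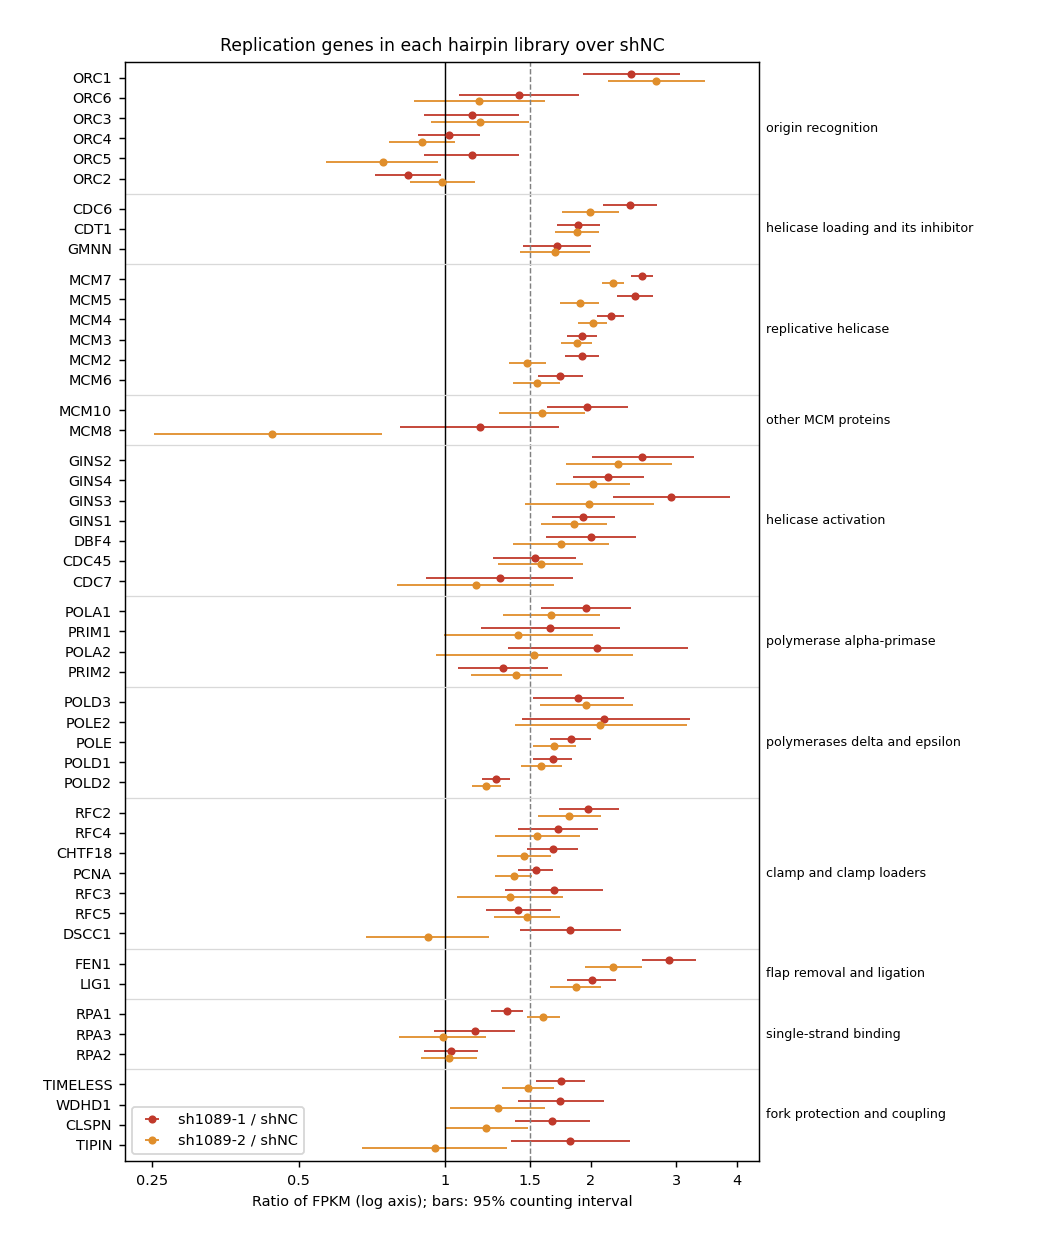
Ratio of FPKM in each hairpin library over shNC (log axis) for the 49 genes, with exact 95% counting intervals as bars; red is sh1089-1 and orange sh1089-2, the solid line is a ratio of 1 and the dashed line 1.5. In sh1089-1 GINS3 reaches 2.92 (2.22 to 3.88) and FEN1 2.90 (2.56 to 3.31), and in sh1089-2 ORC1 reaches 2.73. Both intervals of ORC3, ORC4, CDC7, RPA2 and RPA3 hold 1. ORC2 in sh1089-1, and ORC5 and MCM8 in sh1089-2, have intervals below 1.

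Of the 8 tested polymerase genes 4 were called higher in both libraries, where 3.08% of all genes were. All 4 are subunits of polymerases delta and epsilon. Polymerase alpha-primase makes the primers, and 1 of its 3 tested genes was called higher, POLA1 in sh1089-1, against 5.27% of all genes. POLA1, its catalytic subunit, had 3.98 FPKM in sh1089-1, 3.38 in sh1089-2 and 2.04 in shNC, 1.95-fold (1.58 to 2.43) and 1.66-fold (1.32 to 2.09). The primase subunits were lower in fold, PRIM1 with 4.02, 3.46 and 2.44 FPKM and PRIM2 with 4.38, 4.66 and 3.32, 1.32-fold (1.07 to 1.63) and 1.40-fold (1.13 to 1.74). POLA2, the regulatory subunit, lay below the filter at 1.24, 0.924 and 0.604 FPKM on 66, 43 and 36 reads, and 35.1% of its exon bases are shared with another gene annotated on the same strand.

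The uncalled gene among the 5 of polymerases delta and epsilon was POLD2. POLD3, a delta subunit, had 4.42, 4.58 and 2.34 FPKM, 1.89-fold (1.52 to 2.35) and 1.96-fold (1.57 to 2.44). POLE2, an epsilon subunit, had 2.77, 2.71 and 1.30 FPKM on 78, 67 and 41 reads. The catalytic subunits were POLD1, with 23.5, 22.3 and 14.1 FPKM, and POLE, with 6.92, 6.40 and 3.799. POLD2, the most abundant of the 5, had 52.8, 50.4 and 41.4 FPKM, 1.28-fold (1.20 to 1.37) and 1.22-fold (1.14 to 1.31).

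Of the clamp and clamp loader genes, 6 of 7 were called higher in sh1089-1, against 5.27% of all genes. In sh1089-2 only RFC2 was, against 4.89%. RFC4, with differences of 0.68 and 0.56, lay on either side of the threshold. Between the hairpin libraries the intervals of RFC2 to RFC5 held 1, and those of PCNA, CHTF18 and DSCC1 lay below 1. PCNA, the sliding clamp and the most abundant of all 49 mRNAs in shNC, had 102 FPKM in sh1089-1, 91.9 in sh1089-2 and 66.2 in shNC, 1.54-fold (1.42 to 1.67) and 1.39-fold (1.27 to 1.52). PCNA has 3 annotated pseudogenes that carry its name and could share reads with it. RFC2 of the loader had 25.8, 23.5 and 13.0 FPKM, 1.98-fold (1.72 to 2.28) and 1.81-fold (1.56 to 2.10). RFC3 had 6.87, 5.57 and 4.09 FPKM, RFC4 9.77, 8.86 and 5.71, and RFC5 12.5, 13.1 and 8.83.

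The subunits of the alternative loader, which acts in sister chromatid cohesion, parted in sh1089-2. CHTF18 had 12.01, 10.47 and 7.19 FPKM, 1.67-fold (1.48 to 1.89) and 1.46-fold (1.28 to 1.66). DSCC1 had 7.85, 3.99 and 4.32 FPKM on 186, 83 and 115 reads, 1.82-fold (1.43 to 2.31) and 0.924-fold (0.688 to 1.24).

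FEN1 and LIG1, which trim and seal lagging-strand pieces, were both called higher in both libraries, where 3.08% of all genes were. FEN1, the flap endonuclease (chromosome 11, 61792637 to 61797244), had 41.1 FPKM in sh1089-1, 31.6 in sh1089-2 and 14.2 in shNC. It was 2.90-fold (2.56 to 3.31) and 2.23-fold (1.95 to 2.56) above shNC and ranked 62 of 11198 genes by its mean difference, ahead of all other members. FEN1 shares 1.98% of its exon bases with FADS2 on the same strand and 6.7% with TMEM258 on the opposite strand. The length found for FEN1, 2198 bases, differs from the annotated 2478, so its read count and intervals are less sure. LIG1, the ligase, had 13.3, 12.3 and 6.62 FPKM, 2.01-fold (1.79 to 2.26) and 1.86-fold (1.65 to 2.10).

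Of the 3 genes of the single-strand binding complex RPA, 1 was called higher, in sh1089-2, against 4.89% of all genes. RPA1, its large subunit, had 27.8 FPKM in sh1089-1, 33.0 in sh1089-2 and 20.6 in shNC, 1.35-fold (1.25 to 1.45) and 1.60-fold (1.48 to 1.73). RPA2 had 24.1, 23.9 and 23.4 FPKM, 1.03-fold (0.905 to 1.17) and 1.02-fold (0.893 to 1.17). RPA3 had 7.27, 6.26 and 6.31 FPKM, 1.15-fold (0.953 to 1.40) and 0.992-fold (0.807 to 1.22). For RPA2 the intervals leave room for differences of up to 1.17-fold in either library, and it has 3 annotated pseudogenes that carry its name. RPA1 was the most abundant of the 3 mRNAs per length in both hairpin libraries, and RPA2 was in shNC.

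The fork protection genes were called higher in sh1089-1 in 3 of 4 cases, where 5.27% of all genes were. In sh1089-2 0 of 4 were, against 4.89%, although the intervals of TIMELESS, CLSPN and WDHD1 against shNC lay above 1. TIMELESS, which couples helicase and polymerase, had 13.4 FPKM in sh1089-1, 11.5 in sh1089-2 and 7.72 in shNC, 1.73-fold (1.55 to 1.95) and 1.48-fold (1.31 to 1.68). Its obligate partner TIPIN had 5.13, 2.71 and 2.83 FPKM on 134, 62 and 83 reads, 1.81-fold (1.37 to 2.41) and 0.956-fold (0.677 to 1.35), and 579 of its 2755 exon bases overlap a ribosomal protein pseudogene on the same strand. The ratio of TIMELESS to TIPIN was 2.61 in sh1089-1, 4.23 in sh1089-2 and 2.73 in shNC. CLSPN, the checkpoint mediator claspin, had 3.45, 2.52 and 2.07 FPKM; the length found for it, 9591 bases, differs from the annotated 5411, so its read count is less sure. WDHD1, which links the helicase to polymerase alpha, had 4.06, 3.02 and 2.34.

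The hairpin lines were then set against each other, a comparison that does not use shNC. The members lay mostly a little lower in sh1089-2 than in sh1089-1: 41 of 49 by FPKM. Among the 47 tested members 39 lay lower, where 52.1% of all 11198 tested genes did. On TPM 34 of the 47 tested members lay lower, as did 5060 of all 11198 tested genes. The median difference over the 47 tested members was -0.14, beside -0.01 over all genes, and the summed RPM was 0.904-fold (0.889 to 0.919). The counting interval lay below 1 for 18 members, above 1 for 1 (RPA1) and held 1 for 30. The share of all genes with such intervals was not counted here either. At 1.5-fold 2 members were called lower, DSCC1 and TIPIN, against 2.3% of all genes, and 0 higher, against 2.47%. At 2-fold 0 members were called either lower, against 0.884% of all genes, or higher, against 0.839%.

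DSCC1 stood at 0.509-fold (0.388 to 0.662) of its sh1089-1 level, TIPIN at 0.527-fold (0.384 to 0.718) and ORC5 at 0.655-fold (0.502 to 0.852). At the other end, RPA1 stood at 1.19-fold (1.10 to 1.28), ORC2 at 1.18-fold (0.996 to 1.39) and ORC1 at 1.13-fold (0.939 to 1.35). MCM2 and MCM5 both stood at 0.770-fold, while MCM3 stood at 0.974-fold (0.913 to 1.04). The library of sh1089-2 also had fewer reads than that of sh1089-1, and the part of this in the ratios was not tested.

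**Figure D4:**
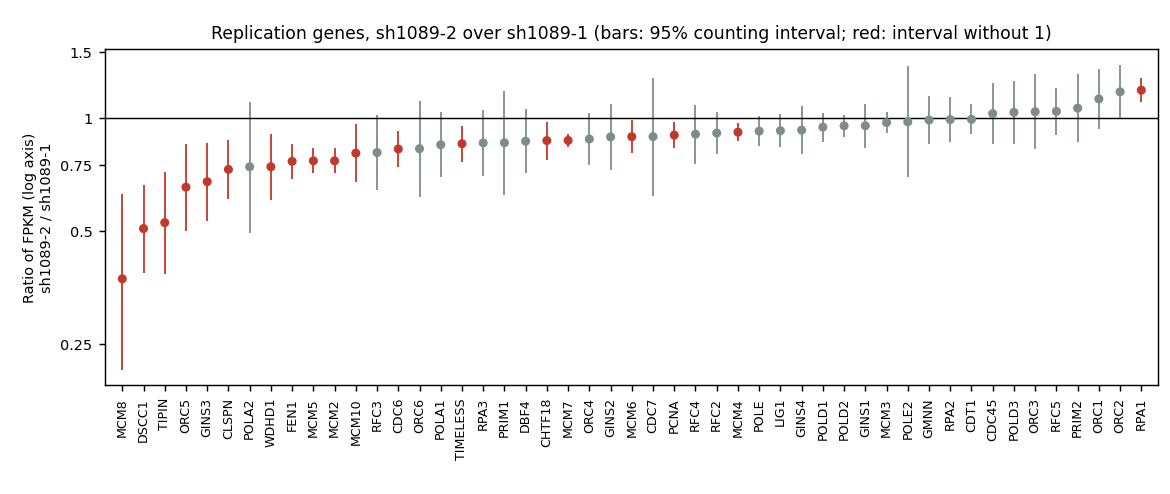
Ratio of FPKM in sh1089-2 over sh1089-1 (log axis) for the 49 genes in rising order, with exact 95% counting intervals; red marks the 19 genes whose interval does not hold 1. MCM8, DSCC1 and TIPIN lie lowest, and RPA1 lies highest with an interval above 1.

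Further lists place the members among related genes. Of 20 other replication factors 13 passed the filter, and 2, RECQL4 and DTL, were called higher in both libraries, where 3.08% of all genes were. RECQL4, a helicase of origin firing, had 28.5 FPKM in sh1089-1, 20.6 in sh1089-2 and 11.2 in shNC. DTL, an adaptor for CDT1 degradation, had 7.97, 9.28 and 4.16. The lowest were TOP1, the type I topoisomerase, with 27.4, 22.1 and 28.6 FPKM, and DNA2, a nuclease-helicase, with 2.69, 2.36 and 2.60. Of 10 genes of chromatin assembly behind the fork 5 were called higher in both, against the same 3.08%. Among these 5, CHAF1B had 6.44, 6.68 and 2.22 FPKM and ASF1B 25.5, 23.2 and 10.03. ASF1A, the paralog of ASF1B, had 3.97, 4.48 and 5.02. Medians of the chromatin assembly genes were 0.80 in sh1089-1 and 0.68 in sh1089-2, against 0.30 and 0.32 for the other replication factors.

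Of 21 tested G1/S genes outside the machinery 9 were called higher in both, where 3.08% of all genes were, with medians of 0.57 and 0.56. Of 17 tested G2/M genes 14 were, with medians of 0.97 and 1.19. In sh1089-2 against sh1089-1, the G1/S genes had a median of -0.18 with 19 of 21 below, as the members did, while the G2/M genes had a median of 0.14 with 12 of 17 above. The G1/S differences ranged from 0.14 to 1.36 in sh1089-1 and from -0.31 to 1.38 in sh1089-2. RRM2, a ribonucleotide reductase subunit, had 54.8 FPKM in sh1089-1, 57.2 in sh1089-2 and 21.4 in shNC, and TK1, thymidine kinase, 147, 141 and 56.8. KIF20A, a mitotic kinesin, had 29.1 FPKM in sh1089-1, 42.3 in sh1089-2 and 12.6 in shNC, and PLK1, a mitotic kinase, 33.8, 34.0 and 11.3. The lowest G2/M differences were those of KIF23, another mitotic kinesin, with 9.27, 9.08 and 6.17 FPKM, and CDK1, with 17.5, 16.5 and 11.6. The signs of these list medians held under each scaling tried; the difference between the lists was not tested.

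The cell cycle exit genes had medians of -0.42 in sh1089-1 and -0.15 in sh1089-2 and 6 of 9 below shNC in both; 3 were called lower in sh1089-1, where 5.83% of all genes were, and 0 in sh1089-2, where 5.63% were. CDKN1C, a CDK inhibitor, had 0.805, 1.40 and 2.11 FPKM on 19, 29 and 56 reads, and CDKN1A, another, had 206, 263 and 339. At the other end, KLF4, a growth-restraining factor, stood higher in both, with 6.74, 7.25 and 4.80 FPKM, and BTG1, an antiproliferative gene, had 7.14, 11.4 and 7.90. Of 7 tested translesion genes 0 were called in either, where 5.27% of all genes were called higher and 5.83% lower in sh1089-1, with medians of 0.11 and 0.25; POLK had 1.38, 1.67 and 2.07 FPKM and RAD18, which recruits these polymerases, 4.04, 3.61 and 2.37. Of 8 mitochondrial DNA replication genes 1 was called lower in sh1089-2, where 5.63% of all genes were: TFAM, with 10.03, 5.84 and 9.47 FPKM, and the medians were 0.02 and -0.02. Both tested genes of telomere end replication lay below shNC in both libraries, CTC1 with 4.59, 5.18 and 6.92 FPKM.

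**Figure D5:**
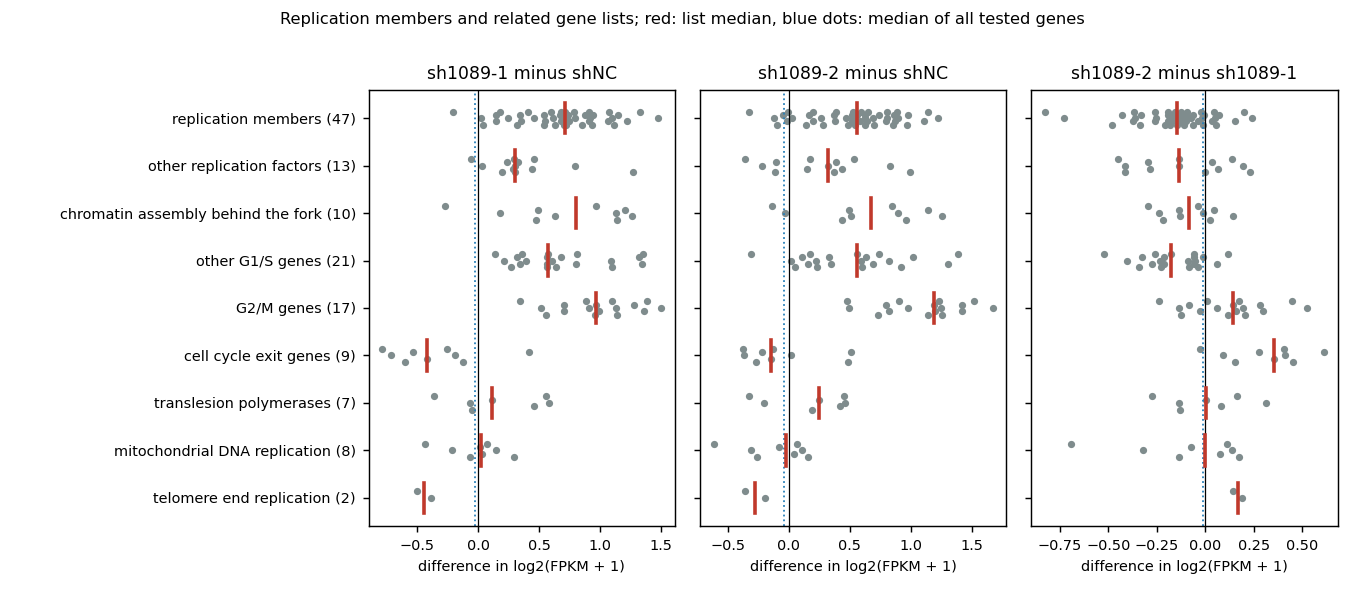
Differences in log2(FPKM + 1) for the 47 tested members and 8 further lists, 1 point per gene, in sh1089-1 minus shNC, sh1089-2 minus shNC and sh1089-2 minus sh1089-1; the number of tested genes is in brackets, red bars are list medians and dotted blue lines the medians of all 11198 genes. The medians of the members and of the G2/M genes lie right of 0 in the comparisons with shNC, and on opposite sides of it, at -0.14 and 0.14, in sh1089-2 minus sh1089-1.

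The median difference of the 50 tested genes nearest to each member, members left out, lay between -0.28 (GMNN) and 0.28 (POLA2) in sh1089-1 and between -0.21 (WDHD1) and 0.14 (POLA2) in sh1089-2. For ORC2, with differences of -0.21 in sh1089-1 and -0.01 in sh1089-2, the neighbour median was -0.17 and -0.16. Around FEN1 it was 0.14 and 0.11, and around MCM7 0.07 and 0.02.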

How the data were processed

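RNA sequencing of 3 SK-Hep-1 lines gave 1 library each. Per the labels' protocols, RNA was taken with Trizol, mRNA was enriched and libraries were strand-specific. FastQC, StringTie and the GRCh38 build appear in the submitters' processing notes, without versions. The aligner, annotation release and use of strand in counting were not given in the sources used here. The authors deposited FPKM, which scale reads by gene length and library total. Antisense and overlapping genes were therefore treated as possible sources of shared reads.

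Library totals and whole reads were recovered from the FPKM steps for all 19219 genes above 0, choosing the gene length nearest to that in GENCODE 29 on GRCh38, and the search was tested on simulated data. The length found equals the annotated one for 62.7% of these genes and for 25 of the 49 members; where it does not, reads and intervals are less sure. With 3 reads as the floor, a gene with no read may still hold 0.315 RPM in sh1089-1, 0.359 in sh1089-2 and 0.280 in shNC. Differences are in log2(FPKM + 1); the pseudocount understates folds of low genes, and printed folds are plain FPKM ratios. No test or p-value was possible with 1 library per group. Python 3.11.15, numpy 2.4.6, pandas 2.3.3 and scipy 1.17.1 were used. Promoters are from RefSeq.

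All members may be named; full values went to the 12 with the largest mean difference over both hairpins, the highest and lowest of each role, and the 3 highest and 3 lowest in sh1089-2 against sh1089-1, and from further lists the 2 highest and 2 lowest could be named, of which some are. Members printed beyond that rule, GINS3, POLE2 and CHTF18 among them, complete their roles. Members and lists were chosen with earlier results of these data known. Alternatives were other pseudocounts, filters, scalings and a 2-fold threshold.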

Additional observations from a re-analysis of the deposited data

How the results depend on the processing

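Each group is 1 library, so the values rest on single lines. No paired analysis was possible because each group is 1 library. With a pseudocount of 0.1 the median over the members was 0.79 in sh1089-1, and on TPM it was 0.80 in sh1089-1 and 0.69 in sh1089-2. At 2-fold 8 members were called higher in sh1089-1, against 1.38% of all genes, 3 in sh1089-2, against 1.63%, and 3 in both, against 0.723%. In sh1089-2 against sh1089-1, 1 of 31 members was called lower with a mean of at least 5 FPKM, near the 1.68% of 6376 genes, and 0 at 2-fold. The other 77 summary values were within 1.5 times the reported count, or within the spread allowed for a median. Among them, on TPM 30 members were called higher in sh1089-2, against 7.93% of all genes, and 28 in both, against 4.54%. With a mean of at least 5 FPKM 24 of 31 were called higher in sh1089-1, against 5.99% of 6376 genes. In single genes, 937 values stayed within the spread allowed around the main value and 2 did not. These were MCM7 (1.22, main value 1.14) and POLE (0.77, main value 0.62) in sh1089-2 on TPM. GINS3 in sh1089-1 was 1.48 with a pseudocount of 0.1. The sign of 14 small differences changed, 8 of them on TPM, 4 with median centring and 2 with TMM scaling. On TPM these included ORC2 (0.05), RPA3 (0.06) and TIPIN (0.0052) in sh1089-2, and MCM3 (0.0097) in sh1089-2 against sh1089-1. Members were called lower than shNC under none of the settings tried (pseudocount, filters, TPM, median centring, TMM scaling on recovered reads, 2-fold). Fewer than 100 reads in at least 1 library, as in MCM8, POLA2, POLE2, CDC7, TIPIN, PRIM1, GINS3, ORC6, DSCC1 and ORC5, limit what those genes can show.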
